A study of Capra hircus with 10 samples.

Results

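Smooth muscle contractile genes encode the actin, myosin regulators and thin filament proteins with which smooth muscle cells, the myoepithelial cells around mammary alveoli and myofibroblasts generate force. The 10 genes described here, with their NCBI gene identifiers, are ACTA2 (102191486), TAGLN (102185937), MYLK (102190641), CNN1 (102190599), MYH11 (102177493), ACTG2 (102178279), TPM1 (102173472), TPM2 (102178827), CALD1 (102188560) and LMOD1 (102170047). They were chosen by name, as the goat genes whose NCBI gene identifier carries one of these symbols, out of 17197 genes in the table. All 10 had a row and all 10 passed the filter on low values (1 FPKM or more in 2 or more libraries), which left 11340 genes to test.

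RNA was sequenced from mammary gland cells of Lanshan dairy goats kept in 3D culture, with 2 libraries in each of 5 groups. Blank cells carry the genotype label control. OV55666 and KD553 are the overexpression and the knockdown of the long noncoding RNA lncRNA55666, both delivered by virus. Lv5NC and Lv3NC carry the genotype labels 5NC and 3NC, which the labels do not spell out, and are taken here as the control viruses. Overexpression was compared with Lv5NC and knockdown with Lv3NC, following the order in which the design text names them, since no label states the pairing. No row is named for lncRNA55666, so neither manipulation was checked against its label. The labels do not say whether the 2 libraries of a group are separate cultures or animals. The p-values therefore describe the spread between these libraries alone, and that spread may be technical.

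In a contractile cell, thin filaments of smooth muscle alpha and gamma actin (ACTA2, ACTG2) are wrapped by tropomyosin (TPM1, TPM2) and carry caldesmon (CALD1), calponin (CNN1) and transgelin (TAGLN). The motor is the smooth muscle myosin heavy chain (MYH11). The kinase encoded by MYLK phosphorylates its light chain in response to calcium, and so starts contraction, while leiomodin (LMOD1) seeds new actin filaments. Many of these genes are switched on by serum response factor (SRF) with its coactivators myocardin (MYOCD) and the myocardin-related factors MKL1 and MKL2.

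FPKM (fragments scaled to transcript length and to the mapped fragments of the library) summed to between 440565 and 460423 in the 10 libraries, and the number of reads is unknown. In each library 10922 to 11163 genes reached 1 FPKM. The cells held RNA of fibroblast and contractile genes and almost none of epithelial genes. Of the 8 basal or myoepithelial markers with a row, 7 were below 1 FPKM in every library, KRT14 at most at 0.09, TP63 at most at 0.05 and the oxytocin receptor gene OXTR at most at 0.14, and their summed FPKM lay between 0.96 and 1.61. The eighth was the laminin gene LAMA3, at most at 1.23 FPKM. Of the 10 luminal markers 9 were below 1 FPKM in every library, and KRT8 and EPCAM reached at most 0.02 and 0.02. All 12 fibroblast markers were at 1 FPKM or more in every library. Among markers of mature smooth muscle outside the 10 genes, smoothelin (SMTN) had a mean of 44.3 FPKM, SYNPO2 5.37 and the potassium channel subunit gene KCNMB1 7.74, whereas desmin (DES), MYOCD and phospholamban (PLN) reached at most 0.19, 0.19 and 0.06. Of the pericyte markers PDGFRB (mean 65.9), CSPG4 (mean 26.7) and CD248 (mean 30.2) were the highest, and RGS5, MCAM and HIGD1B stayed below 0.1 FPKM. Of the 11 myofibroblast markers 8 were at 1 FPKM or more in every library, with FN1 the highest at a mean of 2816 FPKM. Only 1, POSTN, was below 1 FPKM in every library, at most at 0.81. All 6 endothelial markers were below 1 FPKM in every library. Of the other lists, 8 of 10 skeletal or cardiac muscle markers, 3 of 5 leukocyte markers and 4 of 5 adipocyte markers were below 1 FPKM throughout. KRT5 and KRT17, also on the myoepithelial list, have no row and were not analysed here. The contractile genes were thus measured in RNA with almost none of the myoepithelial markers that have a row. In bulk RNA a change in the share of cells that express a gene and a change in its RNA per cell cannot be told apart.

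The 10 genes fell into a high set of 7 and a low set of 3. ACTA2 had the highest mean over the 10 libraries, 859 FPKM (rank 72 of 17197), followed by TAGLN with 805, TPM2 with 496, TPM1 with 377, ACTG2 with 325, MYLK with 282 and CALD1 with 249. Then came a gap to CNN1 at 13.8, LMOD1 at 9.55 and MYH11 at 6.51 FPKM. The order of neighbours was not the same in every library: ACTA2 was above TAGLN in 8 of 10, TPM1 above ACTG2 in 7, MYLK above CALD1 in 6 and LMOD1 above MYH11 in 7. CALD1 was above CNN1, and CNN1 above LMOD1, in 10 of 10. The 3 low genes, calponin 1, leiomodin 1 and the smooth muscle myosin heavy chain, are the members usually tied most closely to mature smooth muscle.

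**Figure D1:**
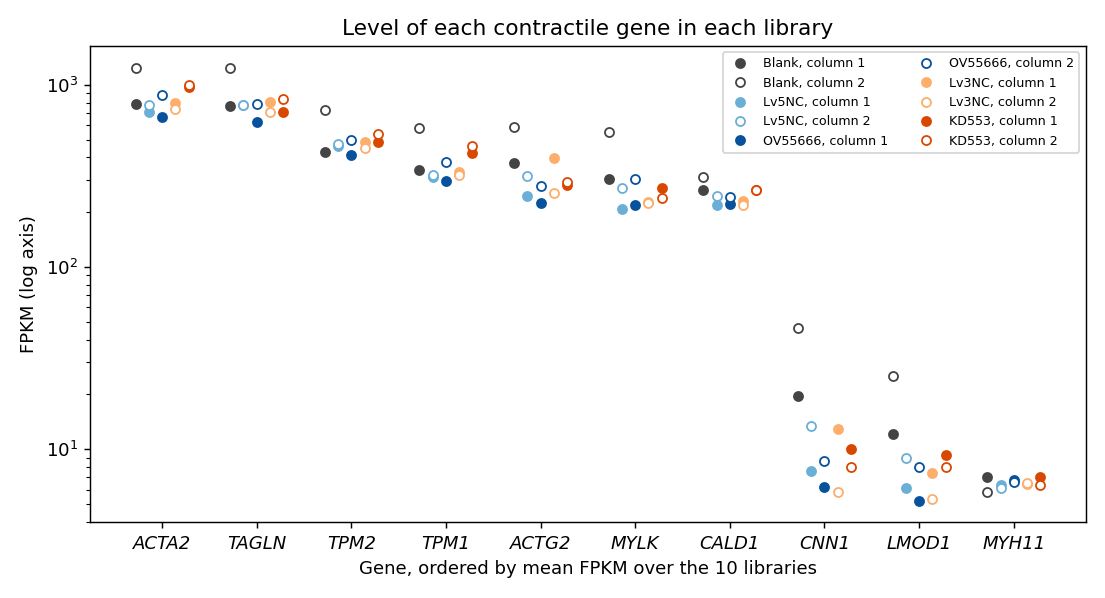
Level of each of the 10 contractile genes (FPKM, log axis) in each of the 10 libraries. Each point is 1 library, coloured by group, with filled points for column number 1 and open points for column number 2. The second Blank library (open grey) lies above all others for 9 genes and below all others for MYH11.

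The second Blank library stood apart, and every comparison with Blank below rests on it in part. It was the highest of the 10 libraries in 9 of the 10 genes, where 11.2% of all tested genes had their highest value there, and the lowest in MYH11. In 8 of the 10 genes it was at least 1.5 times the first Blank library on the log2(FPKM + 1) scale. Only 99 of 11340 tested genes (0.873%) were, and these 8 are among them. The summed FPKM of the 10 genes was 5319.9 there, 1.21% of all FPKM, against 3306 in the first Blank library and between 2688 and 3653 in the 8 virus libraries.

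CNN1 differed most between the Blank libraries, with 19.7 and 46.2 FPKM (a log2 difference of 1.19), then LMOD1 with 12.1 and 25.1 (1.00) and MYLK with 304 and 553 (0.86). CALD1 differed by 0.23 and MYH11 by −0.23. The median difference was 0.73 for the 10 genes and −0.10 for all tested genes. The second Blank library also had 23.5% of its FPKM in its 10 most abundant genes, against 17.7% to 20.8% in the other 9, and was the lowest library for 30.9% of tested genes. Their part in the contractile values was not tested. Within the 5 lists of related genes described further on, 3 of 83 tested genes were at least 1.5 times higher there (0.873% of all tested genes). They were MYH10, MYL9 and SYNPO2. So were 2 of 10 tested myofibroblast markers, COL11A1 (59.5 and 101 FPKM) and LRRC15 (1.28 and 2.62), and 0 of 12 fibroblast and 0 of 7 pericyte markers.

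**Figure D2:**
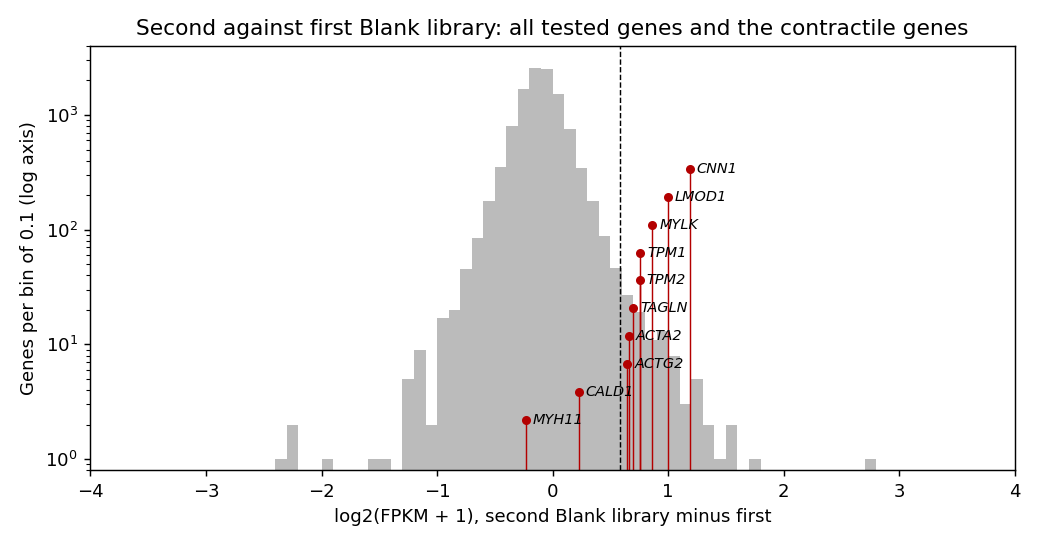
Difference between the second and the first Blank library, in log2(FPKM + 1), for all 11340 tested genes (grey bars, genes per bin of 0.1 on a log axis) and for the 10 contractile genes (red stems, whose heights only separate the names). The dashed line marks 1.5 times, and 8 of the 10 genes lie to its right.

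Among the actins, ACTA2 was at 788 and 1247 in Blank, 711 and 782 in Lv5NC, 668 and 879 in OV55666, 800.2 and 737 in Lv3NC and 981 and 1001 in KD553. Apart from the second Blank library, both KD553 libraries were the highest. ACTG2, the actin of visceral smooth muscle, was at 373 and 586 in Blank, 246 and 316 in Lv5NC, 226 and 278 in OV55666, 397 and 255 in Lv3NC and 282 and 294 in KD553. Here the first Lv3NC library stood above the KD553 libraries, and the Lv3NC libraries differed from each other more than those of Lv5NC, OV55666 or KD553. Together with the cytoskeletal actins ACTB (mean 1351 FPKM) and ACTG1 (mean 2161), the smooth muscle actins made up a large part of actin RNA: ACTA2 took 15.3% to 23% of the summed actin FPKM and ACTG2 5.17% to 10.8%. The striated muscle actins ACTC1 and ACTA1 were at most at 0.75 and 0.25 FPKM. Actin genes are close copies of each other, so the split of fragments between ACTA2 and ACTG2 is uncertain, since the counting method is not given in the sources used here.

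The tropomyosin TPM2 had a narrower range than ACTA2 and ACTG2, with its highest library 1.76 times its lowest, against 1.87 and 2.59 times. TPM1, at 1.95 times, had a narrower range than ACTG2 but not than ACTA2. TPM1 was at 342 and 578 in Blank, 313 and 321 in Lv5NC, 297 and 379 in OV55666, 334 and 320.4 in Lv3NC and 421 and 464 in KD553. TPM2 was at 429 and 725 in Blank, 462 and 475 in Lv5NC, 413 and 499.9 in OV55666, 488 and 453 in Lv3NC and 483 and 536 in KD553. Both KD553 libraries were above the other 6 virus libraries in TPM1, whereas for TPM2 the second OV55666 library and the first Lv3NC library lay between them. TPM4 (mean 942 FPKM) took 42.1% to 51.1% of the summed tropomyosin FPKM, TPM2 22.7% to 28.9%, TPM1 16.8% to 23.1% and TPM3 5.87% to 8.84%. The TPM1 row sums 18 transcripts and the TPM2 row 4, so the muscle and non-muscle splice forms of these genes cannot be told apart here.

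Of the motor and its kinase, MYLK was high and MYH11 low. MYLK was at 304 and 553 in Blank, 208 and 273 in Lv5NC, 219.9 and 303 in OV55666, 227 and 226 in Lv3NC and 273 and 238 in KD553. Both Blank libraries exceeded all 8 virus libraries, the first by less than 1 FPKM over the second OV55666 library. MYH11 was at 7.02 and 5.84 in Blank, 6.37 and 6.13 in Lv5NC, 6.79 and 6.6 in OV55666, 6.46 and 6.52 in Lv3NC and 7.05 and 6.36 in KD553. Its highest library was only 1.21 times its lowest, against 1.42 to 7.97 times in the other 9 genes. The heavy chain RNA of these cells was mostly non-muscle: MYH9 (mean 369.7 FPKM) took 84.4% to 94.3% of the summed myosin heavy chain FPKM, MYH10 4.07% to 14.3%, the most in the second Blank library, and MYH11 1.21% to 1.9%. The MYLK row sums 3 transcripts and the MYH11 row 5, of which 2 and 3 have a BGI_novel identifier. The forms of either gene, muscle or non-muscle, cannot be told apart here. In the RefSeq table MYLK, ACTG2 and TPM1 each overlap a pseudogene that has no row here.

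**Figure D3:**
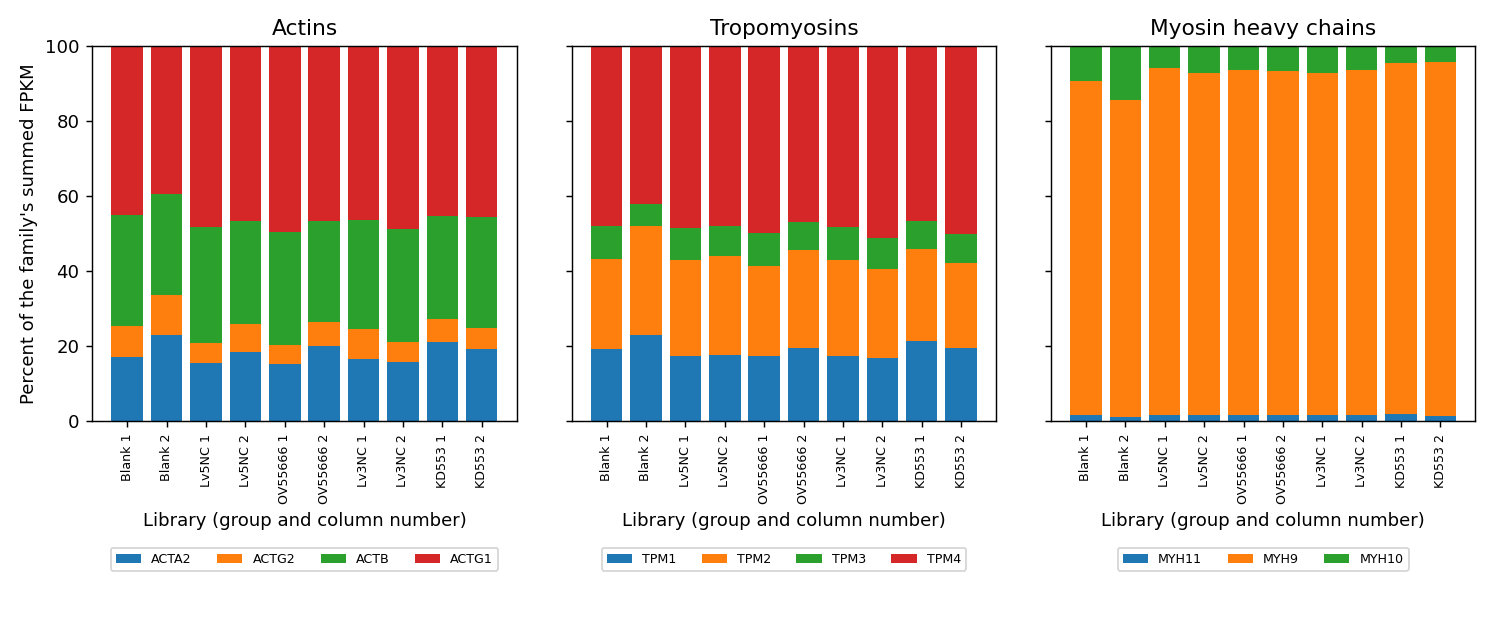
Share of each gene in the summed FPKM of its family (percent, stacked bars) in each library, for actins, tropomyosins and myosin heavy chains. Genes that never reach 1% (ACTC1, ACTA1 and MYH14) are left out of the bars, and ACTA2 spans 15.3% to 23% of actin while MYH11 stays under 2% of myosin.

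Of the thin filament regulators, TAGLN was at 764 and 1242 in Blank, 779.6 and 781 in Lv5NC, 623 and 791 in OV55666, 811 and 713 in Lv3NC and 709.7 and 833 in KD553. Outside the second Blank library its values ran from 623 to 833 with no group apart. Its paralog TAGLN2 had a mean of 236 FPKM. CALD1, which holds back myosin binding to actin, was at 266 and 312 in Blank, 221 and 246 in Lv5NC, 223 and 243 in OV55666, 232 and 220.3 in Lv3NC and 264 and 265 in KD553. The 4 Blank and KD553 libraries were its 4 highest. CALD1 sums 13 transcripts, so the long form of smooth muscle and the short form of other cells cannot be told apart.

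CNN1, which slows actomyosin sliding, was at 19.7 and 46.2 in Blank, 7.6 and 13.4 in Lv5NC, 6.22 and 8.6 in OV55666, 12.8 and 5.8 in Lv3NC and 10 and 8.03 in KD553. LMOD1 was at 12.1 and 25.1 in Blank, 6.11 and 8.99 in Lv5NC, 5.22 and 7.99 in OV55666, 7.44 and 5.32 in Lv3NC and 9.32 and 8.01 in KD553. Both Blank libraries were above all 8 virus libraries in these genes, and among the virus libraries CNN1 had the widest spread of the 10 genes, with a coefficient of variation of 31.3% against 4.34% in MYH11. The paralogs CNN2 (mean 84.4 FPKM) and CNN3 (mean 54.2) were higher than CNN1, which held 3.8% to 21.1% of calponin FPKM.

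Cells with either control virus had lower values of contractile genes than Blank, but no gene of the 10 passed the test. In the comparison of Lv5NC with Blank all 10 were lower (median log2 change −0.45, against −0.0087 over all tested genes). In 7 of them both Lv5NC libraries were below both Blank libraries, as in 23.8% of the genes tested, and in 0 were they above (15.5% of the genes tested). In MYLK, CALD1, CNN1 and LMOD1 both Blank libraries were above all 8 virus libraries, as in 8.4% of the genes tested. The first Blank library and the highest virus library were close in MYLK (303.84 and 303.19 FPKM) and in CALD1 (266.41 and 265.2). limma called 0 of the 10 at an adjusted p under 0.05, where it called 0.291% of all genes, and 5 had an unadjusted p under 0.05 (12.6% of all genes). That 5 fell to 2 when only Lv5NC and Blank were fitted (1126 of 11340 genes). CNN1 was at 10.5 ± 4.11 against 33 ± 18.7 FPKM (SD, n = 2; log2 change −1.49 ± 0.48, SE, adjusted p = 0.259). LMOD1 was at 7.55 ± 2.04 against 18.6 ± 9.21 (log2 change −1.13 ± 0.34, SE, adjusted p = 0.228). The other 3 of the 5 were MYLK (log2 change −0.78 ± 0.27, SE, adjusted p = 0.277), ACTG2 (log2 change −0.74 ± 0.26, SE, adjusted p = 0.275) and CALD1 (log2 change −0.31 ± 0.11, SE, adjusted p = 0.265). Of the remaining genes TPM1 was at 317 ± 5.85 against 460.1 ± 167 FPKM, ACTA2 at 746 ± 49.7 against 1018 ± 324, TAGLN at 781 ± 1.25 against 1003 ± 337 and TPM2 at 468 ± 9.07 against 577 ± 209. In these 4 the SD of Blank was larger than the difference of the means.

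Lv3NC shares its Blank libraries with that comparison. Of the 10 genes 9 were lower than in Blank (median log2 change −0.41, against 0.02 over all tested genes) and MYH11 was at a log2 change of 0.02, which turned to −0.02 with libraries scaled to the same sum. In 5 both Lv3NC libraries were below both Blank libraries (21.9% of the genes tested), and in 0 above (24.3%). limma called 0 of the 10 (0.132% of all genes), and 4 had an unadjusted p under 0.05 (14.8% of all genes). These were LMOD1, at 6.38 ± 1.5 FPKM (log2 change −1.34 ± 0.34, SE, adjusted p = 0.176), CNN1, at 9.32 ± 4.98 (log2 change −1.69 ± 0.48, SE, adjusted p = 0.205), CALD1, at 226 ± 8.14 (log2 change −0.35 ± 0.11, SE, adjusted p = 0.206) and MYLK, at 227 ± 0.318 (log2 change −0.85 ± 0.27, SE, adjusted p = 0.229).

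These differences changed with the Blank library used. Without the second Blank library the median log2 change of the 10 genes was −0.17 for Lv5NC and −0.16 for Lv3NC, 0 were called, and ACTA2 was at −0.08 and −0.04. CNN1 was at −0.90 and −1.09 (adjusted p = 0.656 and 0.591), and LMOD1 at −0.63 and −0.84 (limma adjusted p = 0.604 and 0.529). Without the first Blank library the medians were −0.80 and −0.76, and MYLK, TPM1 and LMOD1 were called lower for both viruses. TPM1 then had log2 changes of −0.86 and −0.82 (limma adjusted p = 0.0278 and 0.0329), in fits that called 1.14% and 0.996% of all genes lower. A lone Blank library is assumed to vary like the libraries of the other groups.

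Some markers of other cells moved with these comparisons. Of the 12 tested fibroblast markers 9 were lower than in Blank for either control virus (median log2 changes −0.25 and −0.23). Among the 10 tested myofibroblast markers 7 were lower in Lv5NC and 8 in Lv3NC (medians −0.19 and −0.29). In both lists 0 passed the test. Of the 7 tested pericyte markers, ABCC9, a channel regulator, was at 5.19 and 8.16 FPKM in Blank, 0.93 and 2.02 in Lv5NC and 1.17 and 0.7 in Lv3NC (log2 changes −1.64 and −1.97, limma adjusted p = 0.0702 and 0.0733). KCNJ8, the pore of the same potassium channel, was at 6.85 and 6.41 in Blank, 1.21 and 2.34 in Lv5NC and 1.42 and 0.82 in Lv3NC (log2 changes −1.49 and −1.86, limma adjusted p = 0.103 and 0.0844). Both Blank libraries were above all 8 virus libraries in both genes, and neither gene passed the test. They were named after their values were seen, and their changes were near or beyond those of CNN1 and LMOD1. The other 5 tested pericyte markers included higher and lower changes. Of all 7, 4 were higher than in Blank for either control virus (medians 0.09 and 0.16). The summed FPKM of the pericyte list lay between 144 and 169 in Blank, 142 and 150.1 in Lv5NC and 129 and 154 in Lv3NC. RGS5 and MCAM were below 0.1 throughout. The leukocyte list was nearly all CD14, at 26.2 and 16.9 FPKM in Blank, 33 and 37.2 in Lv5NC and 21.6 and 22.5 in Lv3NC. Lv5NC was thus above both Blank libraries and Lv3NC between them, while PTPRC, which marks leukocytes in general, was at most at 0.01 FPKM. The part of these markers in the contractile values was not tested.

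With lncRNA55666 overexpression no contractile gene changed past the test. In OV55666 against Lv5NC 4 of the 10 genes were higher and 6 lower, with a median log2 change of −0.02 (0.02 over all tested genes). limma called 0 of the 10 and 0% of all genes. At an unadjusted p under 0.05 there were 0 of the 10, against 1.46% of all genes. Both OV55666 libraries lay above both Lv5NC libraries in MYH11 alone, at 6.7 ± 0.134 against 6.25 ± 0.17 FPKM (SD, n = 2), where 17.7% of all tested genes did so. They lay below in 0, against 9.07%.

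The size of an effect that these libraries could hide differed by gene. ACTA2 was at 773 ± 149 against 746 ± 49.7 FPKM, and the 95% interval of its log2 change ran from −0.43 to 0.50. CALD1 had the interval −0.24 to 0.24 and CNN1, at 7.41 ± 1.68 against 10.5 ± 4.11, the interval −1.55 to 0.71. In the median over the 10 genes the OV55666 libraries differed from each other more than those of Lv5NC, Lv3NC or KD553, though not in every gene. ACTG2, CNN1, CALD1 and MYH11 differed more within Lv5NC, ACTG2 and CNN1 also within Lv3NC, and MYH11 also within KD553. The first OV55666 library was the lowest of all 10 libraries in 6 of the 10 genes, where 4.48% of all tested genes had their lowest value there, and 9 of the 10 genes were higher in the second. The median difference between these libraries was 0.35 on the log2 scale for the 10 genes and 0.10 for all tested genes, both without regard to sign.

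The knockdown libraries had higher values of ACTA2, TPM1, CALD1, MYLK and LMOD1 than Lv3NC, with no gene past the test. In these 5 of the 10 genes both KD553 libraries were above both Lv3NC libraries, as in 19.3% of the genes tested, and they were below in 0 (18.3% of all genes). The median log2 change of the 10 genes was 0.14, with 9 above 0, against 0.0028 over all tested genes. limma called 0 of the 10, where it called 0.0705% of all genes, and 0 had an unadjusted p under 0.05 (7.52% of all genes).

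ACTA2 was at 991 ± 13.6 against 769 ± 44.8 FPKM (SD, n = 2; log2 change 0.37 ± 0.21, SE, adjusted p = 0.754). TPM1 was at 442 ± 30.1 against 327 ± 9.31 (log2 change 0.43 ± 0.22, SE, adjusted p = 0.718) and CALD1 at 265 ± 0.658 against 226 ± 8.14 (log2 change 0.23 ± 0.11, SE, adjusted p = 0.683). For these 3 genes both KD553 libraries were also above all 6 libraries of Lv5NC, OV55666 and Lv3NC, as in 8.91% of the genes tested, and in 0 genes were they below all 6 (6.16%). Against Lv5NC alone, both KD553 libraries were higher in 4 genes, these 3 and TPM2 (24.3% of the genes tested), and lower in 0 (13.8%). LMOD1, at 8.66 ± 0.926 against 6.38 ± 1.5 (log2 change 0.40 ± 0.34, SE, adjusted p = 0.869), and MYLK, at 255 ± 24.4 against 227 ± 0.318 (log2 change 0.17 ± 0.27, SE, adjusted p = 0.951), overlapped the other virus libraries.

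TAGLN (log2 change 0.02 ± 0.22, SE, adjusted p = 0.994), CNN1 (log2 change 0.04 ± 0.48, SE, adjusted p = 0.994) and MYH11 (log2 change 0.04 ± 0.09, SE, adjusted p = 0.967) had changes near 0. TPM2 was at 509.8 ± 37.2 against 470.4 ± 25.2 and ACTG2, the only gene of the 10 with a negative change, at 288 ± 8.5 against 326 ± 99.97 FPKM (log2 change −0.14 ± 0.26, SE, adjusted p = 0.954). The spread shared over all groups includes the difference between the Blank libraries. With the second Blank library left out of it, ACTA2, TPM1 and CALD1 had unadjusted limma p of 0.0237, 0.00673 and 0.0282 (9.38% of all genes were under 0.05) and adjusted p of 0.447, 0.326 and 0.472. Against Blank in place of Lv3NC, ACTA2 and TPM1 had log2 changes of −0.00068 and −0.0090. In both genes the second Blank library was above and the first below both KD553 libraries.

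**Figure D4:**
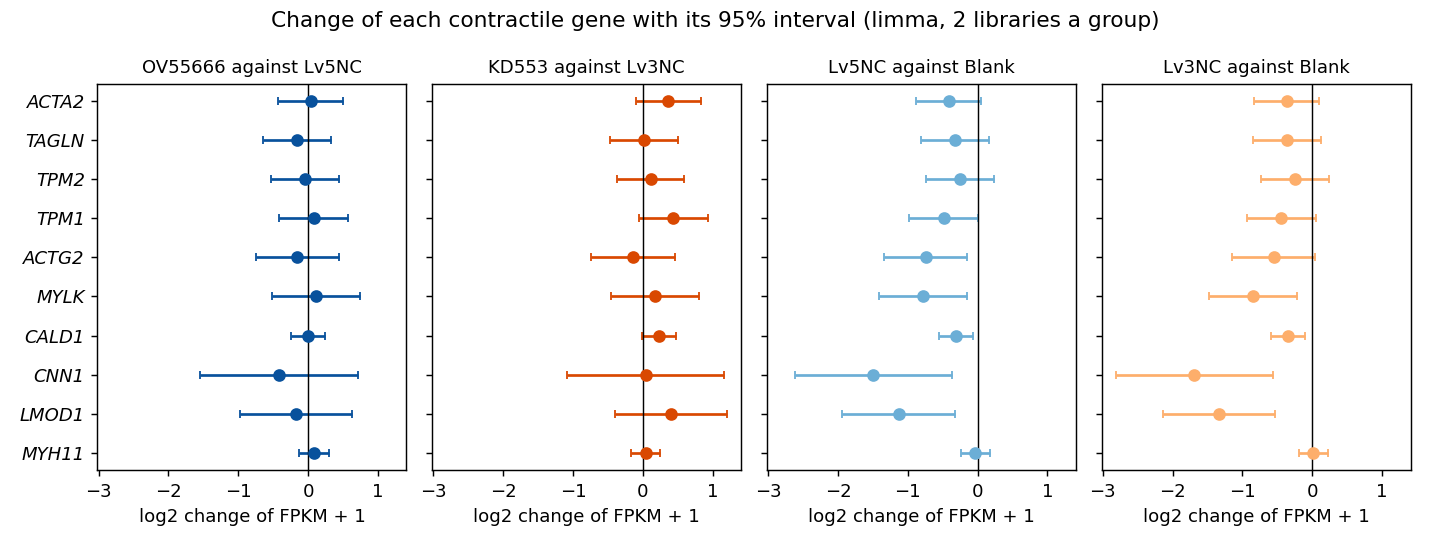
Log2 change of FPKM + 1 for each contractile gene with its 95% interval from limma (points and bars), in 4 comparisons of 2 libraries with 2. In the knockdown 9 points lie above 0 and every interval includes 0, and against Blank the largest negative changes are those of CNN1 and LMOD1.

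The effects of both manipulations were compared in a single contrast, and 0 of the 10 genes passed the test (limma; 0 of all genes called, 0%). The difference, knockdown effect minus overexpression effect, was above 0 in 9 genes, with a median of 0.20 against −0.02 over all tested genes, and 0 had an unadjusted p under 0.05 (3.4% of all genes). It was 0.57 ± 0.49 (SE) for LMOD1, 0.35 ± 0.31 for TPM1, 0.33 ± 0.29 for ACTA2 and 0.23 ± 0.15 for CALD1. Between the control viruses, Lv3NC and Lv5NC, the median was −0.02 (0.02 over all genes), with 5 of the 10 genes above 0. Both Lv3NC libraries lay above both Lv5NC libraries in MYH11 (20.2% of the genes tested) and below in 0 genes (10.7%). limma called 0 of the 10 there (0% of all genes), and 0 had an unadjusted p under 0.05 (2.67%).

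Ratios of genes within a library do not depend on its scaling, and 3 were computed. ACTA2 FPKM was 3.48 and 3.41 times ACTG2 FPKM in the KD553 libraries, the 2 highest values of the 10. The Blank libraries, although far apart in both genes, had 2.11 and 2.13, and the rest ran from 2.02 in the first Lv3NC library to 3.16 in the second OV55666 library. TPM1 FPKM was 0.871 and 0.865 times TPM2 FPKM in KD553, 0.797 and 0.798 in Blank, and between 0.677 and 0.758 in the other 6 libraries. The KD553 libraries thus had the highest values of both ratios. The third ratio, CNN1 over TAGLN, did not set KD553 apart: it was 0.0141 and 0.00964 in KD553, 0.0258 and 0.0372 in Blank, and between 0.00814 and 0.0172 in the other 6 libraries. These ratios were chosen after their values were seen and were not tested.

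**Figure D5:**
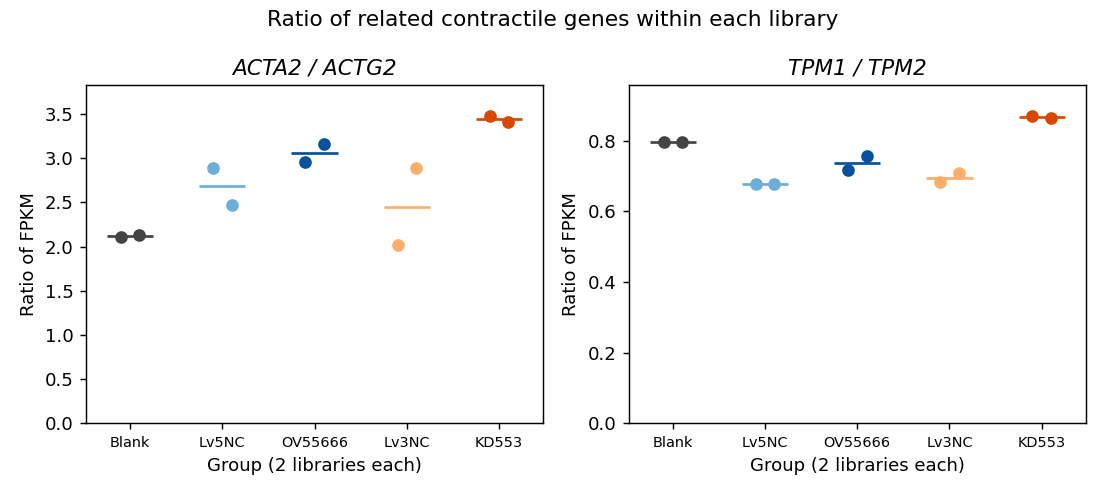
Ratio of FPKM within each library for ACTA2 over ACTG2 and for TPM1 over TPM2 (points, 2 libraries a group; lines, group means). The KD553 libraries have the highest ratio in both panels, and the Blank libraries nearly coincide.

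Other genes of the contractile machinery were read from 5 lists. Of their tested genes, 0 passed the test in OV55666 against Lv5NC and 1 in KD553 against Lv3NC. That gene was HSPB6, a small heat shock protein of smooth muscle, at 121 and 115 FPKM in KD553, with the other 8 libraries between 51.6 and 62 (log2 change 1.04 ± 0.10, limma adjusted p = 0.0134). The call held in 11 of 16 alternatives. It was lost, among others, when only KD553 and Lv3NC were fitted (adjusted p = 0.215), without the second Lv3NC library (0.084) and without the first or second KD553 library (0.148 and 0.095). In Lv5NC against Blank 1 passed, KLF4, a factor known to repress smooth muscle genes. It was at 45.3 and 34.8 FPKM in Blank and 74 and 81.6 in Lv5NC (log2 change 0.95 ± 0.15, limma adjusted p = 0.0437). The call held in 5 of 12 alternatives. Among those that lost it, the adjusted p was 0.261 without the second Blank library, and 0.211 and 0.165 without the first or second Lv5NC library. The other 6 virus libraries also had KLF4 above both Blank libraries, from 61.6 to 86.1 FPKM. Both Blank libraries lay below all 8 virus libraries in 6.51% of the genes tested. In Lv3NC against Blank, in the contrast of effects and between the control viruses 0 passed.

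The paralogs and light chains had 12 tested genes, led by ACTG1, ACTB and TPM4. In the knockdown 2 were higher and 10 lower, with a median log2 change of −0.02. The regulatory light chain gene MYL9, a substrate of MYLK that smooth muscle expresses, had a mean of 299 FPKM. It was at 333 and 357 in KD553 against 297 and 249 in Lv3NC (log2 change 0.34, limma adjusted p = 0.815). Larger changes in this list were negative and did not pass the test. MYH10 was at 16.6 and 16.8 in KD553 against 29.4 and 25.6 in Lv3NC (log2 change −0.68, limma adjusted p = 0.515). TAGLN2 was at 186 and 193 against 273 and 245 (log2 change −0.45, limma adjusted p = 0.188). ACTC1, ACTA1, MYH14, LMOD2, LMOD3, TMOD1 and TMOD2 were below 1 FPKM in every library. All 19 tested genes of myosin phosphorylation were at 1 FPKM or more in every library, among them RHOA (mean 285) and RHOC (mean 129.95), and had a median log2 change of −0.02 in the knockdown and 0.04 with overexpression.

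Among transcription regulators, SRF had a mean of 13.7 FPKM, MKL1 15.3 and MKL2 5.47, whereas MYOCD was at most at 0.19. The highest of the 20 tested were CSRP1 (242), PRRX1 (201) and KLF4 (68.4), and the median log2 change was 0.03 in the knockdown. The 22 tested adhesion and stress fibre genes were led by FLNA (438), ITGB1 (386) and PDLIM7 (273). In the knockdown 18 were higher (median 0.08), where 50.9% of all tested genes were. The largest change there was that of FLNC, which was lower (log2 change −0.48, limma adjusted p = 0.435). Against Blank 20 were lower in Lv5NC (median −0.14) and 16 in Lv3NC (median −0.11). Of all tested genes 47.9% were higher than in Blank in Lv5NC and 53.7% in Lv3NC. ITGA7 was below 1 FPKM throughout. The 10 tested genes among other mature smooth muscle genes were led by HSPB6 (68.6), SMTN and SLMAP (12.1). Of these 10 genes 9 were lower in either control virus than in Blank (medians −0.45 and −0.46). The second Blank library was the highest of all 10 libraries in 9 of the 10 genes (11.2% of all tested genes). Changes of this list without that library are not given here. The 9 below 1 FPKM in every library were DES, CASQ2, PLN, ACTC1, MYOCD, RGS4, CNTN1, LDB3 and CHRM2.

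Of the 10 genes, 9 varied together across the 10 libraries, less so without the second Blank library, and MYH11 did not. Across the 10 libraries the correlation of each gene with the mean log2 value of the other 9 ran from 0.81 (TPM1) to 0.98 (LMOD1) for these 9 and was −0.513 for MYH11. Without the second Blank library it ran from 0.377 (TPM2) to 0.936 (LMOD1), and was 0.154 for MYH11. Between pairs of the 9 genes the correlation ran from 0.63 to 0.99 (median 0.82) across the 10 libraries. Without that library the pairs ran from −0.016 (TPM2 with CNN1) to 0.97 (median 0.47), so some pairs were then unrelated. The libraries share their groups, so these correlations describe the data and carry no test. The genes outside the 10 most like their mean were LIMS2 (r = 0.984), NXPH4 (0.978), CRIM1 (0.976), the tissue factor gene F3 (0.968) and NEXN, an actin-binding protein (0.965). Without the second Blank library these were 0.892 to 0.947. LIMS2, an adaptor of integrin adhesions, was at 4.67 and 13 in Blank, 1.37 and 2.59 in Lv5NC, 1.22 and 2.53 in OV55666, 2.75 and 1.2 in Lv3NC and 3.16 and 2.09 in KD553. Most like ACTA2 alone were NEDD4 (0.978), SYNPO2 (0.971), MYL9 (0.965), KCNMB1 (0.962) and PDLIM5 (0.947), from 0.896 to 0.965 without that library. SYNPO2, MYL9, KCNMB1 and PDLIM5 stand on the lists of contractile and adhesion genes above.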

How the data were processed

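The 10 genes, the lists and the alternatives were chosen with earlier results of these data known. The authors deposited FPKM values from total RNA libraries, in columns named so per the file headers, with 2 decimals. Aligner, counting tool and build were not given in the sources used here. Low values gave no common step between libraries, so depth is unknown. Of 17197 gene identifiers 16658 matched the RefSeq table for ARS1.2, used for symbols and overlapping genes only, and 539 are of the form BGI_novel. Titles and descriptions number the KD553 samples differently, so their columns carry no number of their own outside the replicate block.

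Values were analysed as log2(FPKM + 1), which understates changes of low genes. limma 3.58.1 in R 4.3.3 (1 mean per group, trend and robust moderation) was fitted to all 10 libraries, with 5 residual degrees of freedom and Benjamini-Hochberg adjustment over 11340 genes; a call is an adjusted p under 0.05. The fit was run on data simulated from its own variances with independent noise. Such data cannot show how it handles libraries that deviate together. Every member is named, with called genes, the 3 highest and those below 1 FPKM from each list, and the 5 genes most correlated with the members (symbols of the LOC form left out). Some list genes that this rule names are not reported here. Alternatives were another pseudocount, filters, scalings, fits, controls, a replicate block and leaving out each library.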

Additional observations from a re-analysis of the deposited data

How the results depend on the processing

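Of 87 alternatives run for the count of contractile genes called, over 6 comparisons, 85 left it at 0. The other 2 left out the first Blank library, and there the count was 3 for either control virus against Blank (0 to 3 over the libraries left out). Over all genes, the count for KD553 against Lv3NC was 8, and it was 0 when only these groups were fitted, 1 with the replicate block, 2 against Lv5NC, 286 against Blank and 0 to 3 without any 1 of the Lv3NC and KD553 libraries. For OV55666 it was 1 with a pseudocount of 0.1 and 43 against Blank, in place of 0. For Lv5NC against Blank it was 33, and 18 with a pseudocount of 0.1, 13 without a filter, 0 with the replicate block and 0 to 288 with a library left out (288 and 3 without the first or second Blank library, 0 and 0 without the first or second of Lv5NC). For Lv3NC against Blank it was 15, and 6 with that pseudocount, 7 without a filter, 8 with the filter at 5 FPKM, 56 when only these groups were fitted, 0 with the replicate block and 0 to 292 with a library left out (292 and 1 without the first or second Blank library, 0 and 0 without the first or second of Lv3NC). Between the control viruses it was 1 without a filter, in place of 0. HSPB6 had an adjusted p between 0.00327 and 0.215, and KLF4 between 0.0108 and 0.261. With the replicate block both calls were lost (adjusted p = 0.0678 and 0.109). KLF4 was also lost with a pseudocount of 0.1 (0.0556), without a filter (0.0894) and with plain moderation (0.0504).

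Log2 changes that reversed were all of genes that did not pass the test. With Blank as the control of the knockdown they were −0.00068 for ACTA2, −0.34 for TAGLN, −0.68 for MYLK, −1.65 for CNN1, −0.0090 for TPM1, −0.13 for TPM2, −0.12 for CALD1 and −0.94 for LMOD1. With Lv5NC as its control TAGLN was at −0.022, CNN1 at −0.16 and ACTG2 at 0.046, and with the mean of both control viruses TAGLN at −0.0029 and CNN1 at −0.060. For overexpression against Blank ACTA2 was at −0.37, MYLK at −0.66 and TPM1 at −0.41, and against Lv3NC ACTA2 at −0.0039, CALD1 at 0.043 and LMOD1 at 0.034. MYH11 in Lv3NC against Blank was at −0.019 with the same sum per library. With a library left out, the changes that crossed 0 ran in overexpression from −0.16 to 0.24 (ACTA2), −0.32 to 0.019 (TAGLN), −0.11 to 0.35 (MYLK), −0.33 to 0.027 (ACTG2), −0.10 to 0.25 (TPM1), −0.18 to 0.094 (TPM2), −0.081 to 0.078 (CALD1) and −0.44 to 0.093 (LMOD1). In the knockdown they ran from −0.10 to 0.13 (TAGLN), −0.47 to 0.55 (CNN1), −0.025 to 0.10 (MYH11) and −0.46 to 0.17 (ACTG2). For Lv5NC against Blank they ran from −0.67 to 0.030 (TAGLN), −0.15 to 0.084 (MYH11) and −0.63 to 0.13 (TPM2), and for Lv3NC from −0.10 to 0.13 (MYH11) and −0.62 to 0.13 (TPM2). With libraries shifted to the same median, both Blank libraries lay above the 8 virus libraries in 2 of the 10 genes, in place of 4. The share of all tested genes after this shift is not given here, and the 8.4% above belongs to unshifted values. The cause of the lower count was not tested.

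Libraries with the same column number deviated together in Lv5NC and OV55666 (r = 0.503 across genes) and in Lv3NC and KD553 (0.444), and apart in Lv5NC and KD553 (−0.622), Lv5NC and Lv3NC (−0.462), OV55666 and KD553 (−0.430) and OV55666 and Lv3NC (−0.383); the labels give the number no meaning. With the replicate block, or with the Lv3NC and KD553 numbers exchanged in it, the count in the contrast of effects and between the control viruses stayed 0. In the contrast of effects, 0 of the 10 genes had an unadjusted limma p under 0.05 with the block (360 of 11340 genes). With the numbers exchanged 1 did (564 of 11340). The exchanged numbers were not run for the comparisons in which the block lost the HSPB6 and KLF4 calls. The alternatives with the second Blank library left out of the shared spread, the mean of both control viruses and the exchanged numbers were added after the data were seen. With 2 libraries a group and unknown depth, the 95% interval for the median gene spanned 0.25 on each side of its log2 change.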
